A study of Mus musculus with 12 samples.

Results

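Collagen VI and elastic fibre genes were examined in the livers of mice with carbon tetrachloride (CCl4) fibrosis. The 10 genes were the 3 main collagen VI chains (Col6a1, Col6a2 and Col6a3), elastin (Eln), fibrillin-1 (Fbn1), the fibulins Fbln1, Fbln2 and Fbln5, Mfap4 and Emilin1. They were chosen by gene name, as collagen VI chains and proteins of the elastin microfibril, and are 10 of the 21936 genes in the count table. Male C57BL/6 mice (C57BL/6J in the study's methods), bought at 6 weeks of age, had all been injected intraperitoneally with CCl4 at 1 mL/kg, in 4 parts of olive oil, 2 times per week for 8 weeks. CCl4 is converted by hepatocytes into a reactive product that kills them, and repeated injury leads to scarring. Livers of the fibrosis group (LFG) were taken when the injections ended. Mice of the regression group (REG) were then given 200 µL of PBS, and the hADMSCs-Exo group 250 µg of exosomes from human adipose mesenchymal stem cells in 200 µL of PBS, 2 times per week for 4 weeks. REG and hADMSCs-Exo livers were therefore taken later than LFG livers, and time and treatment cannot be told apart where LFG is compared with hADMSCs-Exo. Each of the 3 groups had 3 RNA libraries, and the labels name no animal, so that p-values measure the spread between libraries. The 3 samples of mice given whole stem cells were not analysed here.

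Collagen VI is assembled inside fibroblasts and stellate cells from its different chains, and is secreted to form beaded filaments around cells and between thicker collagen fibres. Elastic fibres have a core of crosslinked elastin within a sheath of fibrillin microfibrils, to which fibulins, MFAP4 and EMILIN-1 bind and on which elastin is laid down. In the liver, both kinds of matrix surround portal tracts and vessels, and in fibrosis they are produced by activated stellate cells and portal fibroblasts and enter the scar.

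Col6a1 and Col6a2 are neighbours on the minus strand of chromosome 10 (GRCm38), with 85162 bases between them, and Col6a3 is on chromosome 1. Their promoter windows, from 250 bases before to 50 bases after a RefSeq start site (GRCm38.p6), are shown because the 3 chains form 1 protein and their levels moved together across libraries. The Col6a2 and Col6a3 windows shown are those whose start site is the 5′ end of the deposited gene, and the Col6a1 start site (76726044) lies inside the deposited gene. Capitals mark matches to the motifs searched, on either strand.
Col6a1, chr10:76725995-76726294, minus strand: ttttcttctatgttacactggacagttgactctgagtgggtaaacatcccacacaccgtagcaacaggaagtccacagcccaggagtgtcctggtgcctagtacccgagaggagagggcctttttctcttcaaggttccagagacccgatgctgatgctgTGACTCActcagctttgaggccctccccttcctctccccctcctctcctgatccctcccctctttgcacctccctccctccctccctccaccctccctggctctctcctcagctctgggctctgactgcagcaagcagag
Col6a2, chr10:76623581-76623880, minus strand: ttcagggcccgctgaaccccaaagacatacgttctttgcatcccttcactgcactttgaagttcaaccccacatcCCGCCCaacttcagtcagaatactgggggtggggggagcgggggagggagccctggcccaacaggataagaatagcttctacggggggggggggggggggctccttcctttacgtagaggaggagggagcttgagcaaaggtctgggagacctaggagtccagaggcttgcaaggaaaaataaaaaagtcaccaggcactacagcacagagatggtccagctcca
Col6a3, chr1:90843922-90844221, minus strand: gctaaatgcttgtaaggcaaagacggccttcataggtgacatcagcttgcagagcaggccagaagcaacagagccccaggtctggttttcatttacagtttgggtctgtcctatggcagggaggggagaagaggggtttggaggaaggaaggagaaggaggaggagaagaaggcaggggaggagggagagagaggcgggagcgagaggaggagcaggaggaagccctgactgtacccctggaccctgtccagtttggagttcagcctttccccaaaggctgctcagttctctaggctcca
The capitals in the Col6a1 window are an AP-1 motif, TGACTCA, which begins 90 bases before the start site (position -90). AP-1 is a Jun and Fos transcription factor pair active in stressed and growing cells, and its motif (searched as TGANTCA) was in 7.81% of the 32851 promoter windows. Those in the Col6a2 window are a GC box (GGGCGG, here read on the opposite strand) at position -175, a motif of Sp1 found in 35.7% of all windows. A second Col6a2 window, around a RefSeq start site at 76623404 that is not shown, held 3 GC boxes and a TEAD core, at position -115. The Col6a3 window held none of the motifs searched, which also included CCAAT (a box bound by NF-Y, 37.4% of windows), CATTCC (the core bound by TEAD factors, 14.7%) and CAGACA (the core bound by SMAD proteins, 21.0%). TATAAA (the TATA box, 13.6% of windows) was in none of the member windows. RefSeq windows were matched for 8 of the 10 genes, those of Eln and Mfap4 being absent. A match describes letters in a window and is not a measured binding site.

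Total counts per library ran from 13837445 to 19840917, and no replicate matched another within counting error. LFG replicate 3 was the shallowest library and stood apart: its log2 CPM (counts scaled to the library's total) correlated across genes by 0.833 with LFG 1 and 0.874 with LFG 2, against 0.965 between those 2. Within REG the correlations were 0.964 to 0.981 and within hADMSCs-Exo 0.959 to 0.976. Hepatocyte markers, albumin among them, summed to between 106000 and 162000 CPM in all libraries, as the label liver requires. Because LFG 3 touches every comparison with LFG, those are given with it and without it.

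Levels of the genes are given in FPKM, counts scaled to gene length and to the library's total count, which allows genes of different length to be compared. Col6a1 encodes the chain every collagen VI molecule contains (ENSMUSG00000001119, chromosome 10, 76708792 to 76726168, minus strand). Its level was 13.3, 12.7 and 0.907 FPKM in LFG 1, 2 and 3, 3.48, 3.74 and 2.75 FPKM in REG 1, 2 and 3, and 0.638, 2.58 and 1.59 FPKM in hADMSCs-Exo 1, 2 and 3. LFG 1 and 2 were thus above all other libraries, LFG 3 was below all of REG, and REG lay above hADMSCs-Exo, though by a factor of only 1.07 between the nearest libraries. Col6a2, the chain that pairs with it (ENSMUSG00000020241, chromosome 10, 76595762 to 76623630, minus strand), had 5.04, 3.60 and 0.191 FPKM in LFG, 1.18, 1.44 and 0.860 in REG and 0.292, 0.751 and 0.672 in hADMSCs-Exo. Col6a3, the largest of the 3 chains and the one that carries endotrophin at its end (ENSMUSG00000048126, chromosome 1, 90765923 to 90843971, minus strand), had 10.7, 4.95 and 0.205 FPKM in LFG, 1.03, 1.13 and 0.948 in REG and 0.376, 0.782 and 0.502 in hADMSCs-Exo. For both chains REG lay above hADMSCs-Exo without overlap, as for Col6a1, and LFG 3 was the lowest of all 9 libraries. REG replicates of Col6a3 were within a factor of 1.19 of each other, whereas LFG 1 was 52.2 times LFG 3.

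Eln encodes tropoelastin, the subunit of the elastic core (ENSMUSG00000029675, chromosome 5, 134702593 to 134747323, minus strand). Its level was 3.55, 2.82 and 0.134 FPKM in LFG, 0.563, 0.601 and 0.392 in REG, and 0.195, 0.233 and 0.182 in hADMSCs-Exo. Among the 10 genes Eln had the widest gap between the 2 later groups, the lowest REG library being 1.68 times the highest hADMSCs-Exo library, and hADMSCs-Exo replicates differed by a factor of 1.28. These hADMSCs-Exo levels rest on 25 to 31 counts per library. Fbn1 forms the microfibril itself and binds latent TGF-β complexes (ENSMUSG00000027204, chromosome 2, 125300594 to 125507993, minus strand). It stood at 2.86, 1.34 and 0.0298 FPKM in LFG, 0.485, 0.359 and 0.266 in REG, and 0.115, 0.205 and 0.102 in hADMSCs-Exo. The LFG 3 value comes from 5 counts, with a 95% exact Poisson interval of 1.62 to 11.7 that covers counting error only, and LFG 1 was 95.9 times LFG 3. Fbn1 had the lowest FPKM of the 10 genes in 8 of 9 libraries.

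Fibulins bridge elastin, fibrillin and basement membrane proteins, and the 3 fibulins differed in how the later groups were ordered. Fbln1 (ENSMUSG00000006369, chromosome 15, 85205949 to 85286535, plus strand) had 1.3, 1.96 and 0.0993 FPKM in LFG, 0.715, 0.928 and 0.485 in REG and 0.167, 0.306 and 0.216 in hADMSCs-Exo. The lowest REG library was 1.58 times the highest hADMSCs-Exo library. Fbln5, which guides elastin onto microfibrils (ENSMUSG00000021186, chromosome 12, 101746565 to 101819055, minus strand), had 2.04, 2.07 and 0.125 FPKM in LFG, 1.14, 0.895 and 0.707 in REG and 0.193, 0.624 and 0.332 in hADMSCs-Exo. REG again lay above hADMSCs-Exo, by a factor of 1.13 between the nearest libraries. Fbln2 (ENSMUSG00000064080, chromosome 6, 91212455 to 91272540, plus strand) had 2.80, 1.96 and 0.0454 FPKM in LFG, 0.565, 0.708 and 0.356 in REG and 0.162, 0.467 and 0.638 in hADMSCs-Exo. Here the later groups overlapped, hADMSCs-Exo 3 being above REG 1 and REG 3. Fbln2 was also the only member for which hADMSCs-Exo 3, and not hADMSCs-Exo 2, was the highest of its group.

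Mfap4, a fibrinogen-like protein of the microfibril surface (ENSMUSG00000042436, chromosome 11, 61485431 to 61488900, plus strand), had 2.95, 6.45 and 0.188 FPKM in LFG, 3.50, 3.22 and 0.892 in REG and 0.348, 1.23 and 0.827 in hADMSCs-Exo. It was the single member in which LFG 1 did not exceed REG, LFG 1 being below REG 1 and REG 2. REG 3 lay below hADMSCs-Exo 2, so these groups overlapped. Of its 1922 exon bases 89 are shared with Mapk7 on the opposite strand, which had 22 to 135 counts, and the use of strand in counting is not given in the sources used here. Gene models that are not in the count table also overlap Eln (Gm30003), Fbn1 (Gm9913) and Col6a3 (Gm36970). Emilin1, a glycoprotein between elastin and microfibrils that restrains the maturation of TGF-β (ENSMUSG00000029163, chromosome 5, 30913402 to 30921277, plus strand), had 18.4, 10.1 and 1.60 FPKM in LFG, 8.21, 5.28 and 3.60 in REG and 2.07, 5.12 and 3.22 in hADMSCs-Exo. It had the highest FPKM of the 10 genes in 8 of 9 libraries, the exception being LFG 2, where Col6a1 was higher. REG and hADMSCs-Exo overlapped for Emilin1.

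**Figure D1:**
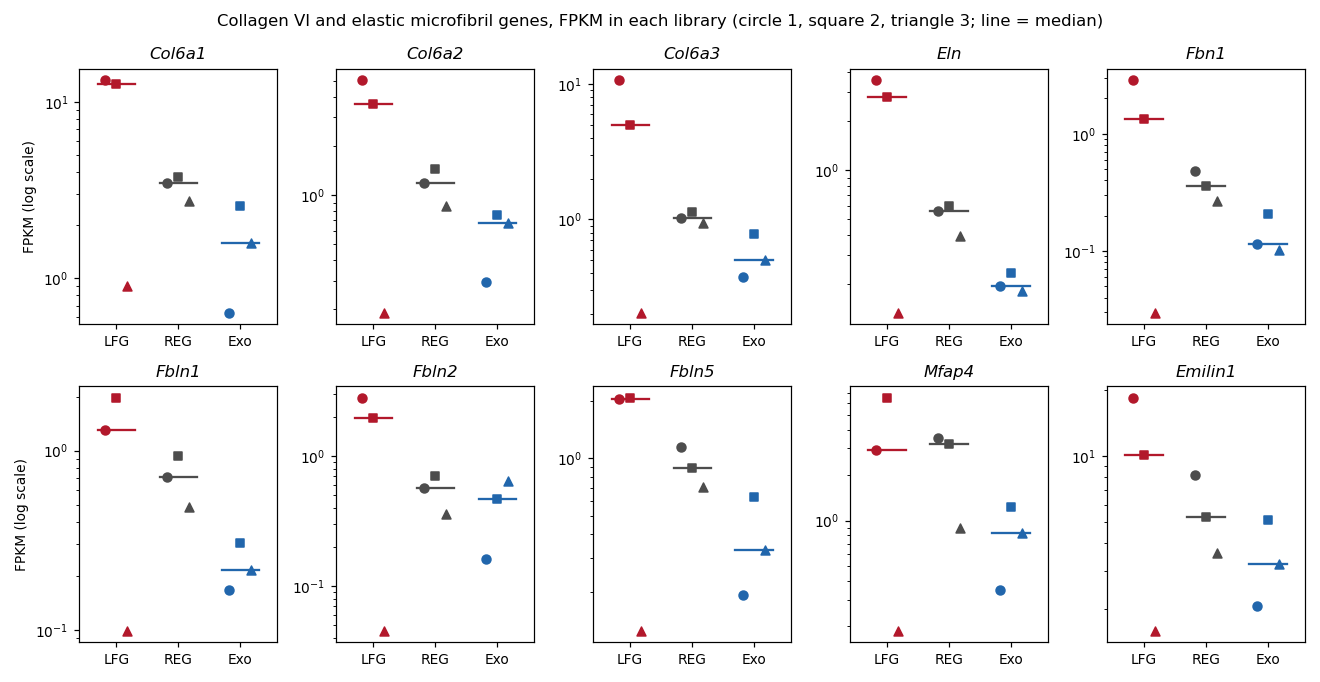
Level of each gene in FPKM (vertical axis, log scale, a separate range for each gene) in the 3 libraries of LFG, REG and hADMSCs-Exo (Exo), with circle, square and triangle for replicates 1, 2 and 3 and a line at the group median. LFG 3 (red triangle) is the lowest of the 9 libraries for 9 genes, and for Col6a1 hADMSCs-Exo 1 is lowest.

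The same libraries were high or low for most members. LFG 3 was the lowest of LFG for 10 of 10 genes and REG 3 the lowest of REG for 10 of 10. In hADMSCs-Exo replicate 1 was lowest for 8 of 10 and replicate 2 highest for 9 of 10. Summed over the 10 genes, the level was 426, 281 and 19.3 CPM in LFG, 110, 98.1 and 65.7 in REG and 26.7, 67.5 and 46.0 in hADMSCs-Exo. In bulk liver RNA, fewer cells of a type and less RNA per cell cannot be told apart.

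The first comparison asks how livers treated with hADMSCs-Exo differed from livers given PBS over the same 4 weeks. All 10 genes had lower estimates in hADMSCs-Exo than in REG, with a median log2 fold change of -1.21 over the members against 0.008 over the 12337 genes tested. A gene was called where edgeR's quasi-likelihood test, two-sided, gave an adjusted p under 0.05 (Benjamini-Hochberg over all genes tested) together with a log2 fold change of 1 or more in size, and none of the 10 was called. At an unadjusted p under 0.05, 8 of 10 were lower, where 4.69% of all genes tested were. In 7 of 10 all REG libraries lay above all hADMSCs-Exo libraries, as for 7.82% of all genes tested. The edgeR test called 0.00811% of all genes, a single gene, DESeq2 called 3 of the 10 members and 0.543% of all genes, and limma with voom called 0 members and 0.0243% of all genes.

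The largest differences were those of Mfap4, with a log2 fold change of -1.71 (SE 0.60, adjusted p = 0.432), and Fbln1, at -1.68 (SE 0.39, adjusted p = 0.358). Fbn1 was lower by a log2 fold change of -1.45 (SE 0.36, adjusted p = 0.380) and Eln by -1.41 (SE 0.29, adjusted p = 0.358). The standard error was thus smallest, relative to its difference, for Eln. Fbln5 gave -1.31 (SE 0.41, adjusted p = 0.409). The collagen VI chains differed by similar amounts, Col6a1 by -1.11 (SE 0.42, adjusted p = 0.463), Col6a2 by -1.07 (SE 0.37, adjusted p = 0.432) and Col6a3 by -0.97 (SE 0.27, adjusted p = 0.407). Col6a1 and Col6a2 are also among the genes the study itself named from these samples, so their direction is not independent evidence. The same holds for Mmp2, Acta2, Col1a1, Col3a1 and Des, which are described below. An entry that the study printed as ln may be Eln. The study counted these genes as differentially expressed, and reported lower Col6a1 and Col6a2 by qRT-PCR. The 2 members that missed even the unadjusted threshold were Emilin1, at -0.77 (SE 0.38, adjusted p = 0.536), and Fbln2, at -0.40 (SE 0.50, adjusted p = 0.812), which does not show that they were equal in the 2 groups. As a ratio of mean FPKM, REG was between 1.29 times (Fbln2) and 3.16 times (Mfap4) the level of hADMSCs-Exo.

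With DESeq2 in place of edgeR, Eln (adjusted p = 0.0196), Fbln1 (adjusted p = 0.0335) and Fbn1 (adjusted p = 0.0388) passed the thresholds. Over the alternatives tried, the adjusted p of each of the 3 reached 1.0, when all 9 libraries shared 1 fit. The median over the members ran from -1.55 without hADMSCs-Exo 2 to -0.86 without hADMSCs-Exo 1, and 5 members (without REG 2) to 9 passed the unadjusted threshold when a library was left out. With all 9 libraries in 1 fit, which then share the spread of LFG, 0 of 10 passed it.

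The comparisons with LFG describe the fibrotic liver at the end of CCl4 against the later groups. With LFG 3 included, no member was called by edgeR in either. Between hADMSCs-Exo and LFG the members' median log2 fold change was -2.06, against -0.059 over 12489 genes, with estimates from -3.14 (Eln, SE 0.91) to -1.25 (Emilin1, SE 0.67) and adjusted p-values of 0.805 to 0.857. The edgeR test called 0.0% of all genes there. At an unadjusted p under 0.05, 5 of 10 members were lower (Eln, Col6a3, Fbn1, Col6a1 and Fbln1) against 3.68% of all genes, and DESeq2 called Eln alone of the members and 0.48% of all genes, and limma with voom 0 members and 0.00801% of all genes. No label pairs these libraries, and the LFG livers were taken earlier. A rule on the correlation of deviations, given below, was the only ground for treating replicate numbers as pairs here. With the replicate number as a block 1 member passed the unadjusted threshold and the median was -1.62. In no member did LFG and hADMSCs-Exo separate, where 6.12% of all genes had all LFG libraries above all hADMSCs-Exo libraries, since LFG 3 was below every hADMSCs-Exo library in 9 of 10.

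Between REG and LFG the median over the members was -1.02, against -0.068 over 12517 genes, and edgeR again called 0.0% of all genes. The estimates ran from -1.93 for Col6a3 (SE 0.95, adjusted p = 0.486) to -0.04 for Mfap4 (SE 0.97, adjusted p = 0.991). Without LFG 1, Col6a3 was at -1.12 and Fbn1 at -0.69, against -1.93 and -1.51 with all libraries of the 2 groups. No member passed an unadjusted p of 0.05, which 6.7% of all genes did in the lower direction, and 0 of 10 had all LFG libraries above all REG libraries, against 9.63% of all genes. DESeq2 called 0 members, with 2 at an unadjusted p under 0.05, and limma with voom and quality weights called 3, Col6a1, Col6a3 and Eln. The shares of all genes called were 1.92% with DESeq2 and 10.3% with limma and voom.

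Without LFG 3 the picture differed. LFG 1 and 2 were above every hADMSCs-Exo library for 10 of 10 genes and above every REG library for 9 of 10, the exception being Mfap4. Over all genes tested the shares were 24.9% and 29.2%. Against hADMSCs-Exo, 9 of 10 were called lower, where 4.5% of the 12955 genes tested were, with a median of -2.55 against 0.004 over all genes. This fit had no replicate block. Eln was lower by a log2 fold change of -3.64 (SE 0.21, adjusted p = 0.00226), Fbn1 by -3.53 (SE 0.36, adjusted p = 0.0103) and Col6a3 by -3.45 (SE 0.35, adjusted p = 0.0103). The smallest difference that was called was that of Emilin1, at -1.68 (SE 0.36, adjusted p = 0.0399), and Mfap4 was not called, at -2.29 (adjusted p = 0.0603). No fit left out LFG 3 together with a second library. In fits that kept LFG 3 and left out another library, the adjusted p of every member reached 1.0, and some estimates shrank. Without LFG 1, Fbn1 was at -2.17 and Col6a3 at -2.11, and without LFG 2 Mfap4 was at -0.59, against -3.0, -2.93 and -1.78 with all 6 libraries.

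For REG against LFG 1 and 2, 6 of 10 were called lower, against 6.94% of 12948 genes, with a median of -1.51 against -0.005. They were the 3 collagen VI chains, Eln, Fbn1 and Fbln2. Col6a3 again led, at -2.45 (SE 0.25, adjusted p = 0.0104), then Eln at -2.19 (SE 0.24, adjusted p = 0.0107) and Fbn1 at -2.05 (SE 0.32, adjusted p = 0.0153). Fbln2 gave -1.69 (SE 0.32, adjusted p = 0.019), Col6a1 -1.56 (SE 0.20, adjusted p = 0.0123) and Col6a2 -1.47 (SE 0.24, adjusted p = 0.0159). The members not called were Emilin1 at -0.88 (adjusted p = 0.0921), Fbln1 at -0.82 (adjusted p = 0.178), Fbln5 at -0.77 (adjusted p = 0.0753) and Mfap4 at -0.54 (adjusted p = 0.541). In fits that kept LFG 3 and left out another library, the adjusted p-values of the 6 reached 0.928 or 0.930. The 3 comparisons share libraries.

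The fibulins differed in their ratios of means. In mean FPKM, LFG 1 and 2 together were 4.38 times REG for Fbln2 and REG was 1.29 times hADMSCs-Exo, while for Fbln1 the same ratios were 2.30 and 3.09 and for Fbln5 2.25 and 2.38. The log2 fold change of Fbln2 between hADMSCs-Exo and REG rested on single libraries, at -0.88 without hADMSCs-Exo 3 and -0.01 without hADMSCs-Exo 1, against -0.40 with all. Mfap4, at 1.85 and 3.16, was ordered like Fbln1, and Col6a3, at 7.56 and 1.87, nearer to Fbln2. Whether these differences between members exceed the spread between libraries was not tested.

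**Figure D2:**
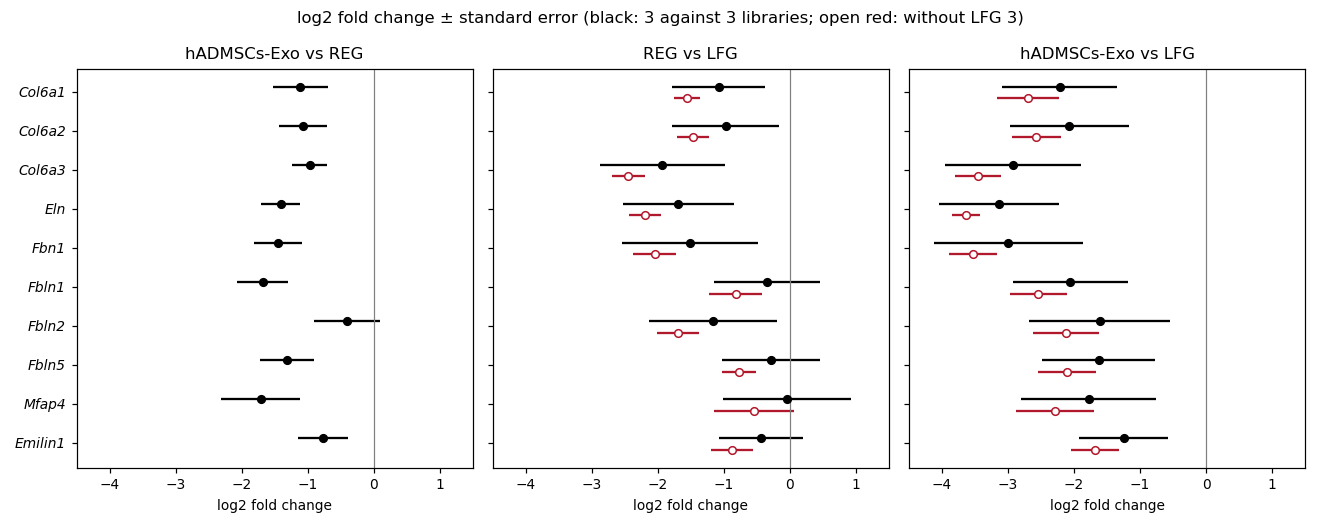
Log2 fold change of each gene (horizontal axis) in the 3 comparisons, with bars of 1 standard error, filled black for 3 against 3 libraries and open red without LFG 3. All black points of hADMSCs-Exo against REG lie below 0, from -1.71 for Mfap4 to -0.40 for Fbln2, and in the comparisons with LFG the bars shorten without LFG 3.

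Ratios between members were compared within libraries, where depth cancels. Col6a2 was 0.21 to 0.457 times Col6a1 in FPKM over the 9 libraries, with REG at 0.313 to 0.384 inside the range of hADMSCs-Exo (0.291 to 0.457). Col6a3 to Col6a1 was 0.803, 0.391 and 0.226 in LFG, 0.295, 0.303 and 0.345 in REG and 0.589, 0.303 and 0.316 in hADMSCs-Exo. LFG 1 and hADMSCs-Exo 1 were thus high in Col6a3 for their Col6a1, and the other libraries of all 3 groups overlapped. Emilin1 to Col6a1 was 1.38, 0.795 and 1.76 in LFG, 2.36, 1.41 and 1.31 in REG and 3.24, 1.98 and 2.03 in hADMSCs-Exo. This ratio overlapped between REG and hADMSCs-Exo, REG 1 being above hADMSCs-Exo 2 and 3. Fbln2 to Fbn1 was 6.26 in hADMSCs-Exo 3 and between 0.981 and 2.28 in the other libraries.

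**Figure D3:**
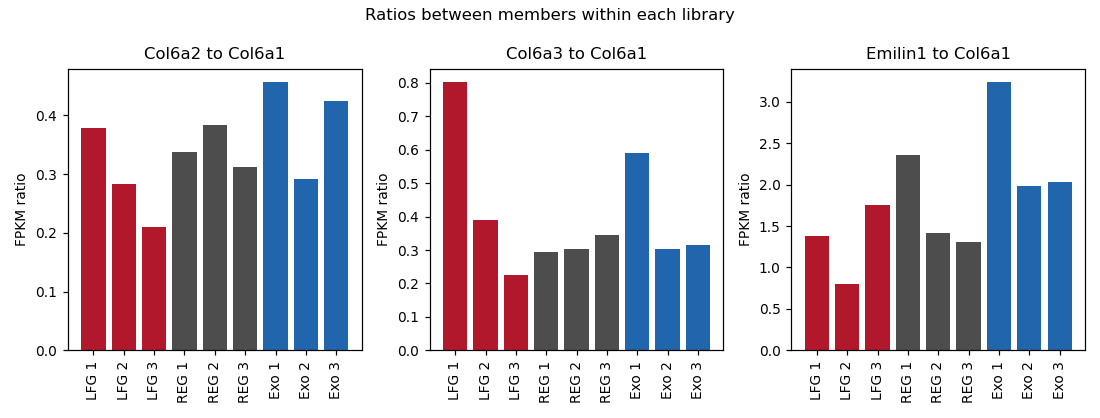
Ratio of FPKM of Col6a2, Col6a3 and Emilin1 to Col6a1 (vertical axes from 0) in each of the 9 libraries, without replication inside a bar. Col6a3 to Col6a1 is highest in LFG 1 (0.803) and hADMSCs-Exo 1 (0.589), and Emilin1 to Col6a1 is highest in hADMSCs-Exo 1 (3.24).

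Across the 9 libraries the log2 CPM of the 45 pairs of members had Pearson correlations of 0.771 (Col6a3 with Mfap4) to 0.974 (Col6a3 with Fbn1), with a median of 0.920. These points share the contrast between LFG 3 and LFG 1 and 2. Over the 6 libraries of REG and hADMSCs-Exo alone the correlations were 0.48 (Fbn1 with Fbln2) to 0.981 (Eln with Fbln1), with a median of 0.889, and they share the difference between the groups. The genes outside the list whose log2 CPM was most like the members' mean profile over 9 libraries were Adamts2 (r = 0.998), which trims procollagen, Lgi2 and Lum (both 0.993), Postn (0.992) and Olfml3 (0.989). Over the 6 libraries they were Adamts2 (0.999), Des (0.995), Lum and Mmrn1 (both 0.991) and Lamb1 (0.990). Adamts2 and Lum were in both sets. Fbln2 had the lowest correlation of the members with that profile over 6 libraries (0.773).

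Other genes of elastic fibre and collagen VI assembly were followed in 8 lists of 55 genes. Between hADMSCs-Exo and REG, 44 were tested, 20 higher and 24 lower, with a median log2 fold change of -0.05. The medians of the lists ran from -0.74 for the other collagen VI chains, -0.57 for the lysyl oxidases, -0.48 for the microfibril partners and -0.34 for the other fibulins to 0.10 for collagen chain modification. At an unadjusted p under 0.05, 3 were higher and 7 lower, where 4.69% of all genes were lower, and the lowest adjusted p was 0.358. Lysyl oxidases crosslink elastin and collagen, and 2 of 4 tested were lower by that measure, Loxl1 at -1.91 (SE 0.49), the family member required for elastic fibre renewal, and Loxl2 at -1.21 (SE 0.52). Lox itself gave 0.62 (SE 0.45). Of 3 other fibulins Efemp2 (fibulin-4) was lower at -1.07 (SE 0.32). Of 8 microfibril partners Ltbp2 was lower at -0.87 (SE 0.38) and Adamts10, a protease that binds fibrillin, higher at 0.45 (SE 0.19).

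Of 7 collagen VI receptors and partners, Antxr1, a collagen VI receptor of the cell surface, was lower at -1.19 (SE 0.42), and in the EMILIN and multimerin family Emilin2 was higher at 0.79 (SE 0.33). Among 7 genes of collagen chain modification, Serpinh1, the collagen chaperone HSP47, was lower at -0.99 (SE 0.35), while the median was 0.10. Of 11 elastin-degrading proteases and parts of the elastin receptor, Mmp2 (gelatinase A) was lower at -1.81 (SE 0.35) and Mmp12 (macrophage elastase) higher at 1.10 (SE 0.46), and their median was 0.02. The other collagen VI chains were scarce. Col6a5 and Col6a6 were tested, at -0.82 (SE 0.84) and -0.66 (SE 0.51), and Col6a4 had at most 1 count in any library.

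Against LFG 7 of the 8 lists had a median below 0 in both comparisons, with LFG 3 and without it. The exception was the list of elastin-degrading proteases and elastin receptor, with medians of 0.19 for hADMSCs-Exo and 0.02 for REG (0.28 and 0.29 without LFG 3). Of 45 tested between hADMSCs-Exo and LFG, 36 were lower, with a median of -1.0, and 12 passed an unadjusted p under 0.05 in that direction (3.68% of all genes), against 1 higher (Elane, neutrophil elastase, at 2.96, SE 0.84, on 1 to 12 counts in LFG). The lowest adjusted p among them was 0.805. In the collagen modification list, 4 of 7 passed the unadjusted threshold, the prolyl hydroxylase subunits P4ha1 at -1.03 (SE 0.25) and P4ha2 at -1.0 (SE 0.34), Serpinh1 at -2.34 (SE 0.83) and the lysyl hydroxylase Plod2 at -1.74 (SE 0.73). Of the microfibril partners 3 of 8 did, Adamtsl2 at -2.17 (SE 0.79), Ltbp3, which holds latent TGF-β, at -1.8 (SE 0.70) and Thsd4 at -1.71 (SE 0.67). Of the proteases, cathepsin K (Ctsk) was at -2.57 (SE 0.77) and Mmp2 at -3.04 (SE 1.18), and the lysyl oxidases Loxl1, Loxl2 and Lox were at -2.98 (SE 0.82), -2.99 (SE 1.12) and -3.01 (SE 1.25). Without LFG 3, 18 of 49 were called lower (4.5% of all genes) and 0 higher, with a median of -1.41. They held 3 of the 5 lysyl oxidases, Lox at -3.54 (SE 0.55, adjusted p = 0.0226), Loxl2 at -3.51 (SE 0.53, adjusted p = 0.0226) and Loxl1 at -3.45 (SE 0.38, adjusted p = 0.0127), where with LFG 3 their adjusted p was 0.805. Loxl3, at -1.16 (SE 0.32, adjusted p = 0.0703), and Loxl4, at -2.82 (SE 0.81, adjusted p = 0.0764), were not called. Between REG and LFG, 38 of 46 were lower, with a median of -0.76, and 6 lower (6.7% of all genes) and 0 higher passed the unadjusted threshold. These were P4ha1 at -1.46 (SE 0.29), P4ha2 at -1.09 (SE 0.32), Ctsk at -1.63 (SE 0.46), Adamts10 at -1.05 (SE 0.28), Adamtsl4 at -1.1 (SE 0.38) and the fibulin relative Hmcn1 at -1.45 (SE 0.49). Without LFG 3, 22 of 50 were called lower (6.94% of all genes) and 0 higher, with a median of -1.20. For Mmp2, Loxl1, Loxl2 and Serpinh1 the level in LFG 3 was 0.129, 0.329, 0.0802 and 2.04 FPKM, below all REG libraries as for the members. Other genes of these lists went the other way. For P4ha1, P4ha2, Ctsk, Adamts10, Adamtsl4 and Hmcn1, LFG 3 was above all REG libraries. P4ha1 was at 5.41 FPKM in LFG 3 against 3.94, 2.07 and 2.33 in REG.

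**Figure D4:**
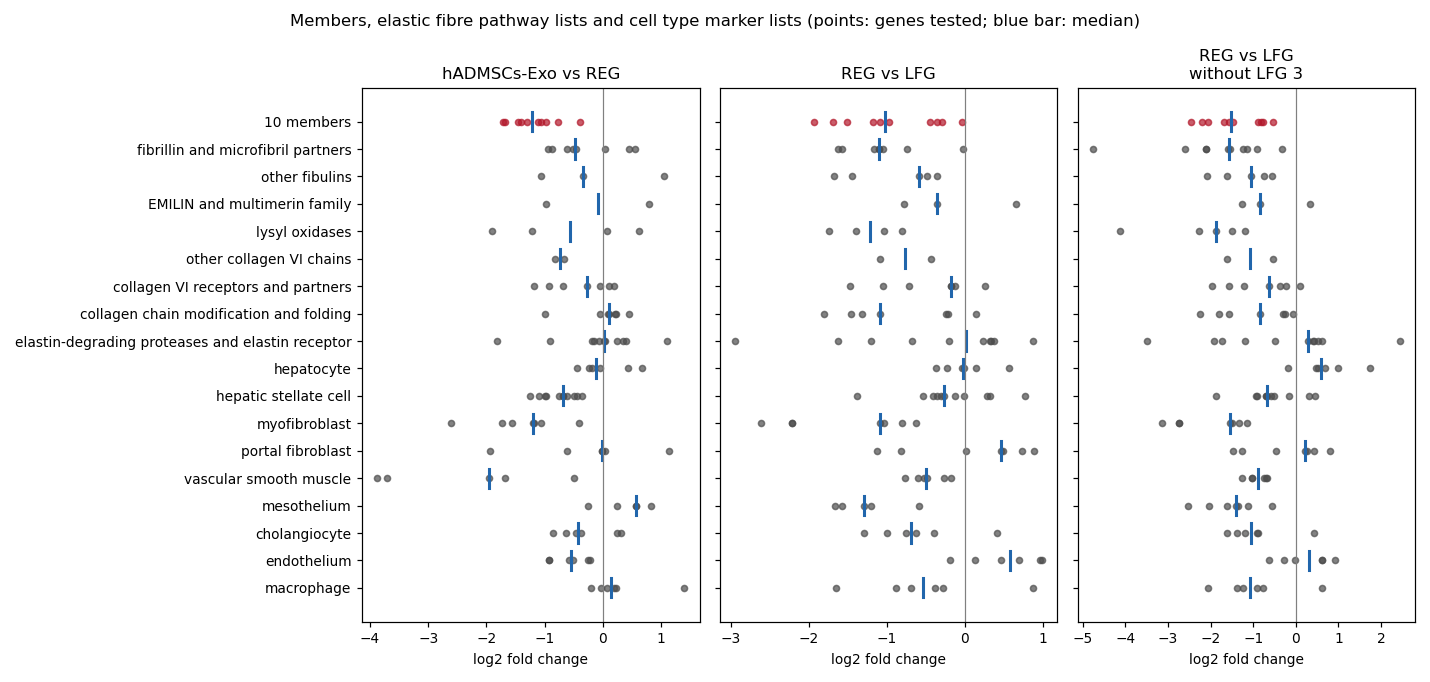
Log2 fold changes (horizontal axis) of the 10 genes, of 8 lists of elastic fibre and collagen VI genes and of 9 cell type marker lists, with a point for each gene tested and a blue bar at the median. In hADMSCs-Exo against REG the members' median is -1.21, that of the myofibroblast markers -1.20 and that of the lysyl oxidases -0.57.

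Markers of the cell types of the liver were summed in each library. Between hADMSCs-Exo and REG edgeR called none of them. Without LFG 3, hADMSCs-Exo against LFG had 6 myofibroblast, 5 vascular smooth muscle and 4 stellate cell markers called lower (4.5% of all genes). REG against LFG had 5, 0 and 1 (6.94% of all genes). In each, 1 hepatocyte marker was called higher. The 8 myofibroblast markers (such as Acta2, Col1a1 and Col3a1) summed to 1680, 793 and 16.6 CPM in LFG, 155, 189 and 102 in REG and 30.0, 82.9 and 55.8 in hADMSCs-Exo, and Tagln was at 0 in all REG libraries and in hADMSCs-Exo 2 and 3. All 7 tested were lower in hADMSCs-Exo than in REG, 6 of them at an unadjusted p under 0.05, with a median of -1.20. Over all genes tested, 4.69% were lower at that threshold. Stellate cell markers (11, such as Lrat, Des and Pdgfrb) summed to 327, 262 and 67.5 CPM in LFG, 127 to 242 in REG and 72.2 to 180 in hADMSCs-Exo, where REG and hADMSCs-Exo overlapped. All 11 were lower in hADMSCs-Exo than in REG, 3 of them at an unadjusted p under 0.05, with a median of -0.69. Vascular smooth muscle markers summed to 33.6, 58.1 and 4.34 CPM in LFG, 13.2 to 23.5 in REG and 5.16 to 7.47 in hADMSCs-Exo, where REG and hADMSCs-Exo did not overlap. Cnn1 was at 0 in LFG 3 and hADMSCs-Exo 1, and Actg2 in those and in hADMSCs-Exo 2. Their 5 tested genes were all lower in hADMSCs-Exo than in REG, 4 at an unadjusted p under 0.05, with a median of -1.96. The part of these cells in the members' differences was not tested.

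Portal fibroblast markers summed to 38.5 to 147 CPM in LFG, 74.2 to 144 in REG and 82.1 to 118 in hADMSCs-Exo, with a median of -0.01 between hADMSCs-Exo and REG. Gas6 held most of these counts, and 1 of the 6 tested, Dpt (dermatopontin), was lower in hADMSCs-Exo than in REG without overlap, at -1.94 (SE 0.39, adjusted p = 0.358). Gli1 was at 0 in LFG 3, REG 1 and hADMSCs-Exo 1, and Clec3b in hADMSCs-Exo 1. The medians of that comparison were -0.54 for endothelium, -0.42 for cholangiocytes, -0.12 for hepatocytes, 0.13 for macrophages and 0.57 for mesothelium. Spp1 held most of the cholangiocyte counts in every library. In LFG 3 macrophage markers were at 92.6 CPM (293 to 1480 in the other libraries), endothelial markers at 39.5 (59.8 to 226), cholangiocyte markers at 40.9 (55.2 to 267) and mesothelial markers at 12.2 (5.10 to 23.2). All lists but those of hepatocytes and mesothelium were thus lowest in LFG 3, and its hepatocyte markers, at 122000 CPM, lay within the range of the other libraries. Single hepatocyte markers did not. Apoa1 (14700 FPKM), Serpina1a (1370) and Cyp2e1 (4470) were highest of all libraries in LFG 3, and Alb (35100) was lowest. Ttr and Hnf4a were at neither extreme.

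**Figure D5:**
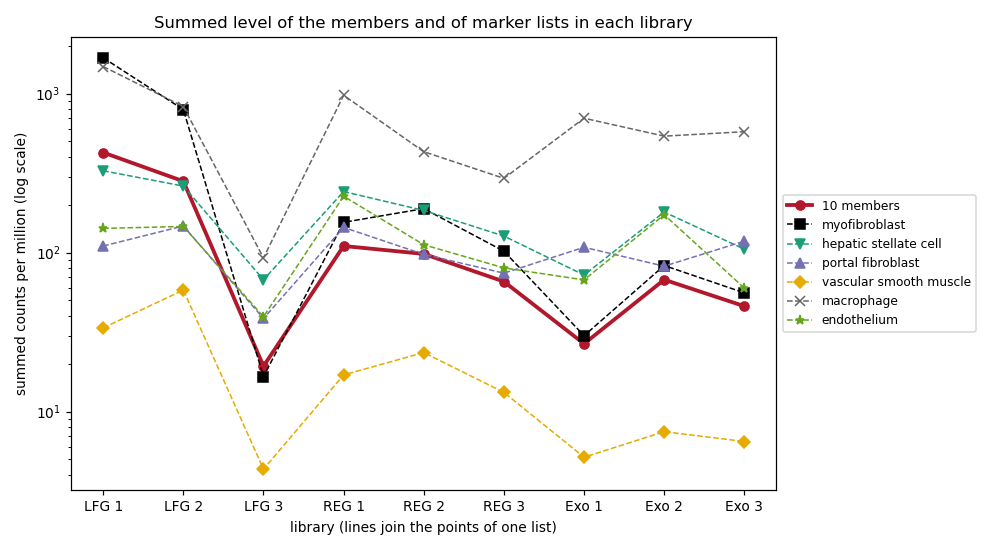
Summed CPM (vertical axis, log scale) of the 10 genes and of 6 marker lists in each of the 9 libraries, with lines that only join the points of a list. The members are at 19.3 in LFG 3, where all 6 marker lists are also at their lowest, and stand at 65.7 to 110 in REG and 26.7 to 67.5 in hADMSCs-Exo.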

How the data were processed

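Liver RNA was extracted with Trizol and sequenced on an Illumina NovaSeq. The authors deposited raw counts per gene for 9 libraries and, beside them, FPKM, which matched those counts divided by gene length and by the library's total to within a relative difference of 9.19e-07. Columns headed MSC_E were read as the hADMSCs-Exo samples, the only ones whose labels name exosomes, which the header does not spell out. The submitters' processing notes name cutadapt 1.15, HISAT2 2.0.5, HTSeq 0.9.1, DESeq 1.30.0 and GRCm38, without their roles. Strand and counting options are not given in the sources used here. Counts of 13837445 to 19840917 per library leave the spread between libraries, not counting error, as the main limit for genes with many counts. For members with fewer counts both are limits. In hADMSCs-Exo the counts of Eln, 26, 31 and 25, lay within each other's 95% Poisson intervals.

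Counts were tested with edgeR 4.0.16 (R 4.3.3) by glmQLFit and glmQLFTest, two-sided, with TMM factors, filterByExpr and the 6 libraries of the 2 groups compared, and the script was tested on simulated data. Standard errors were the log2 fold change divided by the square root of F. Log2 CPM used TMM factors and a prior count of 2, and summed CPM used the library's total alone. FPKM was used for levels only. The alternatives were RLE size factors, DESeq2 1.42.0, limma 3.58.1 with voom and quality weights, at least 1 count over the libraries, a minimum of 10 counts per library, a joint fit of all 9 libraries, the replicate number as a block, and each library left out in turn. Sequences and motif counts were handled with Python 3.11.15 and pandas 2.3.3, and plots drawn with matplotlib 3.10.9.

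The members, gene lists, marker lists (written from general knowledge) and tests were chosen with earlier results of these data known. All members were named, and of each of the 8 elastic fibre and collagen VI lists the genes at an unadjusted p under 0.05, at most 4 per list and comparison, together with Lox, Loxl3, Loxl4, Col6a4, Col6a5 and Col6a6, named after their values were seen. Markers were named as examples of their list or where at 0. Gas6, Dpt, Spp1, Apoa1, Serpina1a and Cyp2e1 were named after their values were seen. The 5 genes most like the members had the largest Pearson correlation with the mean of the members' standardized log2 CPM. Deviations from the group means of same-numbered libraries correlated by 0.101, 0.308 and 0.179 for hADMSCs-Exo and LFG, all over 0.1. On that ground alone these numbers were treated as pairs, and the fit with a block is given beside the main fit, which had none. No label pairs the libraries, and the livers of these groups were taken at different times. Pairs of hADMSCs-Exo with REG gave 0.157, 0.00639 and 0.0374, and pairs of REG with LFG gave 0.414, -0.2 and 0.306, so neither counted as paired.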

Additional observations from a re-analysis of the deposited data

How the results depend on the processing

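The members' median stayed below 0 in all 3 comparisons under all alternatives, and the counts of calls did not stay. For hADMSCs-Exo against REG, edgeR called 1 gene of all tested, against 67 with DESeq2, 3 with limma and voom, 4 with no filter on low counts, 0 with all 9 libraries in 1 fit, and 0 to 1 with a library left out. Members called went from 0 to 3 with DESeq2, and members at an unadjusted p under 0.05 from 8 to 0 with all libraries in 1 fit and to 5 to 9 with a library left out. For hADMSCs-Exo against LFG the 0 genes called became 60 with DESeq2, 1 with voom, 1 with all libraries in 1 fit and 0 to 773 with a library left out. Members called became 1 with DESeq2 and 0 to 9 with a library left out, and the 5 members at an unadjusted p became 10 with voom, 3 with at least 10 counts in every library (a filter that left 6 members), 1 with the replicate block and 1 to 10 with a library left out. For REG against LFG the 0 genes called became 240 with DESeq2, 1285 with voom and 0 to 1391 with a library left out. Members called became 3 with voom and 0 to 6 with a library left out, and members at an unadjusted p became 2 with DESeq2, 6 with voom, 2 with all libraries in 1 fit and 0 to 8 with a library left out. All upper ends in the comparisons with LFG were without LFG 3.

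Single estimates of REG against LFG turned positive in some fits, none of them called. With the replicate block they were Fbln1 at 0.11, Fbln5 at 0.17 and Mfap4 at 0.52, and without LFG 2 Fbln1 at 0.47, Fbln5 at 0.22 and Mfap4 at 1.14. Without REG 3 Mfap4 gave 0.39, and without LFG 1 Emilin1 gave 0.11. With a library left out, the estimates ran from -0.82 to 0.47 for Fbln1, -0.77 to 0.22 for Fbln5, -0.54 to 1.14 for Mfap4 and -0.88 to 0.11 for Emilin1. The replicate numbers of REG were not pairs by the correlation of deviations, and the block changed no count of calls. The cause of these changes was not tested. In LFG 3 members with 4 to 6 counts are limited by counting error.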
